A study of Homo sapiens with 19 samples.

Results

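The array carries probes for 470 genes whose design name is ZNF followed by digits, the naming series of human zinc finger genes. Of these, 342 genes had at least 1 probe that the scanner software marked well above background on all 19 arrays, and the 494 such probes, of 792 ZNF probes in all, are described here. The genes were thus selected on this well-above-background flag. In the same way 17313 of 31033 gene names and 25676 of 50238 probes were detected on every array. Since the flag comes from the signal itself, the detection of these genes is not a result. At its border, 11 further ZNF genes reached 18 arrays but not 19, with mean levels from -4.12 for ZNF549 to -2.50 for ZNF652 on the log2 scale relative to the array's 75th percentile, and the lowest genes inside were ZNF342 at -3.70, ZNF28 at -3.58 and ZNF490 at -3.55. A further 89 genes were detected on 1 to 17 arrays and 28 on none. Gene names follow the array's design, and 31 of them are no longer the gene's symbol (ZNF409 is now ZFHX2, ZNF553 is ZNF48 and ZNF588 is ZNF107).

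THP-1 is 1 human monocytic leukaemia line, so the replicates are cultures of the same line and not donors. All cells were differentiated with 30 nM PMA, a phorbol ester that turns them into adherent macrophage-like cells, for 16 to 18 h and then rested. They were left untreated (UT) or received 0.1 mM vitamin C (vit C), and total RNA was taken at 8, 24, 48 and 96 h. UT cells gave 2, 3, 2 and 3 arrays at these times and vit C-treated cells gave 3, 2, 2 and 2. The comparisons ask what vit C did to gene expression at each time and how UT cells changed with time in culture. Cells that were never given PMA were not analysed here, so a change with time is a change between 8 and 96 h of culture after differentiation.

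Most ZNF genes encode proteins with tandem C2H2 zinc fingers, each of which folds around a zinc ion and reads a few bases of DNA. The largest group also carries a KRAB box, which recruits TRIM28 and, through it, histone methyltransferases and heterochromatin proteins that silence retrotransposons and other repeats. Many of these KRAB genes arose by tandem duplication and lie side by side in clusters, above all on chromosome 19. Other ZNF genes without a KRAB box activate promoters, or act on RNA, ribosomes or the spindle.

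Some members share stretches of sequence in their probes and in their promoters. No word of 11 bases was in the probes of more members than TGTGGCAAAGC, which belongs to the coding sequence of the conserved first part of a finger. It was present in 17 of the 494 member probes (3.44%), each of another gene, and in 26 of all 50238 probes (0.0518%), and its other strand, GCTTTGCCACA, in 1 and 3. These 4 probes of 60 bases from genes of chromosome 19 are shown with the word in capitals, because they show how alike the measured stretches of different genes are:
ZNF100: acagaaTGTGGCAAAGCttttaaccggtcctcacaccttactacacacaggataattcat
ZNF429: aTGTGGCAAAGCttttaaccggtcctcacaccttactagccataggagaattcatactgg
ZNF347: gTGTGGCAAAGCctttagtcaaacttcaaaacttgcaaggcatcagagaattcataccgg
ZNF91: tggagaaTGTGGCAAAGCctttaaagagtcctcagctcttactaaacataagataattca
A run of at least 20 identical bases was shared by 73 pairs of probes of different members, from 35 genes. A run of at least 30 bases was shared by 10 pairs, among them ZNF714 with ZNF85, ZNF468 with ZNF600, ZNF493 with ZNF708 and ZNF100 with ZNF429, and no pair shared 40. The signal of one such gene can therefore hold RNA of its near copies, and the values of these genes are uncertain in that respect.

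Promoters of a cluster on chromosome 19 that runs from ZNF737 to ZNF257 are shown. By group mean, its 13 detected members were all higher in UT cells at 96 h than at 8 h. On UT 96 h replicate 1, however, their median difference from 8 h was -0.09. RefSeq (GRCh38.p14) gave the region from 250 bases before to 50 bases after the start for 291 members. Windows of 90 bases follow, 5′ to 3′ on the gene's strand, with the words CTGTCACTCA and TCCAATCA in capitals. No word of 10 bases was in more promoters of members that rose in UT cells than CTGTCACTCA, and no word of 8 bases in more promoters of the cluster than TCCAATCA. Where words tied, the rarest over all genes was taken. ZNF93 lies nearby on chromosome 19, while ZNF695 on chromosome 1 and ZNF138 on chromosome 7 are shown because their promoters hold the same words. The window of ZNF93 is at chr19:19900811-19900900 (plus strand), ZNF626 at chr19:20661619-20661708 (minus), ZNF714 at chr19:21082065-21082154 (plus), ZNF493 at chr19:21396998-21397087 (plus), ZNF257 at chr19:22052352-22052441 (plus), ZNF695 at chr1:247008102-247008191 (minus) and ZNF138 at chr7:64794290-64794379 (plus):
ZNF93: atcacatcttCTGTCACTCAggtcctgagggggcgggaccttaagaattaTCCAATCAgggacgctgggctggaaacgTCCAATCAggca
ZNF626: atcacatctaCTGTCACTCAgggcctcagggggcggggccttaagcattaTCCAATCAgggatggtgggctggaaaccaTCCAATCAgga
ZNF714: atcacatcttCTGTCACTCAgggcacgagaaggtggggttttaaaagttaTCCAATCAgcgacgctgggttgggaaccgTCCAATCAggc
ZNF493: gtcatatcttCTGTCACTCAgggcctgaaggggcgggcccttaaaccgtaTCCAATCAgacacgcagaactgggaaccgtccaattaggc
ZNF257: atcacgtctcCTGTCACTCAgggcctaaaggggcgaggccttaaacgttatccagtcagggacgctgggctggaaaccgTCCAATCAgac
ZNF695: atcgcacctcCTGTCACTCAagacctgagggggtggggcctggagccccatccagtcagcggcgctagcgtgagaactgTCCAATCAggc
ZNF138: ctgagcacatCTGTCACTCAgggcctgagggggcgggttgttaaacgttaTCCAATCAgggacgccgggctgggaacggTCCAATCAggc
The windows matched that of ZNF93 at 65.6% of positions for ZNF695 to 82.2% for ZNF626. Where both copies of TCCAATCA were present they began 40 and 68 or 69 bases after the first base of CTGTCACTCA. TCCAATCA, or TGATTGGA on the other strand, was in the promoters of 12 of 12 members of the cluster, 38 of 137 members of chromosome 19 (27.7%), 12 of 154 members of other chromosomes (7.79%), 2.48% of the other genes of chromosome 19 and 1.9% of 27305 genes. CTGTCACTCA, or TGAGTGACAG on the other strand, was in the promoters of 10 of 12, 23 of 137 (16.8%), 7 of 154 (4.55%), 1.17% and 0.418% of the same sets. CTGTCACTCA was in 10 of the 31 promoters of members that rose and TCCAATCA in 13. The words were picked after it was seen which members rose, and duplicated genes share their promoters by descent, so the shares are a description and no match is called a site.

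The 75th percentile of the processed signal lay between 290.2 and 903.5 on the 19 arrays, and 57.5% to 72.8% of probes per array were well above background. The labelled cell type was checked against its markers, and 8 of 9 monocyte and macrophage genes on the array were detected everywhere and the ninth, LYZ, on 18 arrays, while CD3D, COL1A2, CDH1, CDH5 and HBB were detected on none. Genes listed for other cell types were not all silent, and CD79A, CD3E, KRT18 and PECAM1 were among those detected on all arrays. The arrays lay on 4 slides, and no slide held UT and vit C arrays of the same time. UT arrays filled slide 1 apart from replicates 2 and 3 of UT 96 h, which shared slide 2 with the vit C arrays of 8 and 24 h and 1 of 48 h. The other vit C array of 48 h was on slide 3, and both of 96 h on slide 4. Slide and vit C can therefore be told apart only through the UT arrays of 96 h, and at 96 h not at all. In RNA from whole cultures, fewer cells of a kind and less RNA per cell cannot be told apart.

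By 96 h in UT cells, more ZNF genes had risen than fallen. In UT cells at 96 h against 8 h, 37 members rose and 8 fell of 291 tested (limma, a log2 change of 1 or more with q, the Benjamini-Hochberg adjusted p, of 0.05 or less). That is 15.5% of those tested against 19.3% of all genes tested, with 10.6% of all genes called higher and 8.72% called lower. The median change of the 342 members was 0.07 against -0.04 over all detected genes, and 54.4% of members were higher at 96 h against 47.6% of all genes. Of the 37 rises 5 rest on a dimmer probe alone, as do 2 of the 8 falls. The other 51 members were not tested because their probes on the array moved in opposite directions. At 48 h 4 members rose and 5 fell of 267 tested, 3.37% against 10.7% of all genes. At 24 h 1 rose and 2 fell of 265, 1.13% against 3.1%. With no minimum fold 5, 28 and 85 members passed q at the 3 times in turn, while 4.79%, 15% and 30.3% of all genes tested did. With normexp, another background correction, 18 members rose and 4 fell by 96 h, and 2165 of 14829 genes tested were called.

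The 3 largest rises by 96 h were those of ZNF331, ZNF695 and ZNF93. ZNF331, a KRAB gene that is imprinted in some human tissues, read -2.00 and -2.32 in UT cells at 8 h, -1.52, -2.50 and -2.05 at 24 h, -0.49 and -0.29 at 48 h and 0.70, 0.29 and -0.33 at 96 h. The 8 and 24 h arrays overlapped with each other and lay below all those of 48 and 96 h. Between 8 and 96 h it rose by 2.38 ± 0.30 (SE) on the log2 scale, or 5.21-fold (limma, adjusted p = 4.1e-05), and its other probe rose by 2.79 ± 0.25. In vit C-treated cells it read -1.87, -1.60 and -1.62 at 8 h and 0.71 and 0.72 at 96 h.

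ZNF695 read -3.06 and -2.88 in UT cells at 8 h, -2.02 and -1.70 at 48 h and -0.74, -0.77 and 0.30 at 96 h. The 3 groups did not overlap, and the gene rose by 2.57 ± 0.28 (5.93-fold, limma, adjusted p = 1.39e-05) by 96 h. It had already risen by 1.11 ± 0.31 at 48 h (limma, adjusted p = 0.0351), a call that was lost when any 1 of the 4 arrays was left out.

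ZNF93, a KRAB protein known to bind and repress LINE retrotransposons, read 0.72 and 1.19 in UT cells at 8 h, 1.74, 1.32 and 1.18 at 24 h, 1.80 and 1.72 at 48 h and 2.64, 3.01 and 3.34 at 96 h. All 3 arrays of 96 h lay above every other UT array. The rise by 96 h was 2.04 ± 0.23 (4.12-fold, limma, adjusted p = 1.57e-05), and its 5 probes, which were all called, gave rises from 1.34 to 2.08. Vit C-treated cells read 0.98, 1.09 and 1.01 at 8 h and 2.75 and 2.64 at 96 h.

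Among the other members that rose, ZNF219 and ZNF331 did so on both of their probes at 48 h already. ZNF219, a C2H2 transcription factor, read 2.32 and 2.24 at 8 h, 3.63 and 3.61 at 48 h and 4.08, 4.06 and 3.59 at 96 h in UT cells. The 48 and 96 h arrays overlapped and both lay above 8 h, with a rise of 1.34 ± 0.21 at 48 h (limma, adjusted p = 0.000763) and of 1.63 ± 0.19 at 96 h (limma, adjusted p = 2.45e-05). ZNF521, a cofactor of early haematopoietic progenitors, went down before it went up. It read 0.63 and 1.17 at 8 h, 0.01, -0.40 and -0.18 at 24 h, 0.68 and 0.53 at 48 h and 2.80, 2.20 and 2.59 at 96 h. The arrays of 24 h lay below and those of 96 h above all others, with a fall of 1.1 ± 0.24 at 24 h (limma, adjusted p = 0.0244) and a rise of 1.63 ± 0.24 at 96 h (limma, adjusted p = 0.000204). The fall at 24 h was lost without UT 8 h replicate 2, UT 24 h replicate 2 or UT 24 h replicate 3. ZNF552 was the single member called higher at 24 h, from -3.15 and -3.05 to -1.58, -1.82 and -1.58, and the call was lost without any 1 of these 5 arrays. At 48 h it read -1.02 and -1.53, or 1.83 ± 0.35 above 8 h, but was not tested because its probes moved in opposite directions, and at 96 h it differed by 0.14.

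The largest falls were those of ZNF366, ZNF697 and ZNF668. ZNF366, known as DC-SCRIPT in dendritic cells, where it binds nuclear receptors, read 1.70 and 1.76 in UT cells at 8 h, 0.41 on each of the 3 arrays at 24 h, -1.34 and -1.25 at 48 h and -0.87, -1.34 and -0.97 at 96 h. It had the widest range of group means of all members, 4.20 on the log2 scale. The fall was 1.32 ± 0.22 at 24 h, 3.03 ± 0.24 at 48 h (8.16-fold, limma, adjusted p = 2.02e-06) and 2.79 ± 0.22 at 96 h (6.93-fold, limma, adjusted p = 6.09e-07). The calls at 48 and 96 h were kept without any 1 array, and that at 24 h was lost without UT 8 h replicate 2.

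ZNF697 fell from 1.83 and 1.81 at 8 h to -0.09, 0.58 and 0.68 at 96 h, a change of 1.43 ± 0.25 downwards (limma, adjusted p = 0.000871), and its other probe fell by 1.95. ZNF668 read 0.71 and 0.23 at 8 h and -0.52, 0.01 and -1.81 at 96 h, and its fall of 1.24 ± 0.40 (limma, adjusted p = 0.0382) was lost without UT 96 h replicate 3 or either array of 8 h. The 5 falls at 48 h were ZNF366, ZNF70 by 1.75 ± 0.25, ZNF330 by 1.22 ± 0.33, ZNF469 by 1.06 ± 0.19 and ZNF512 by 1.04 ± 0.21 (limma, adjusted p from 2.02e-06 to 0.029). ZNF330 encodes a nucleolar protein and mutations in ZNF469 cause a brittle cornea. ZNF70 kept its call without any 1 array, ZNF330 lost it without each of the 4, and ZNF469 and ZNF512 each lost it without 1 array, UT 8 h replicate 2 and UT 48 h replicate 1.

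**Figure D1:**
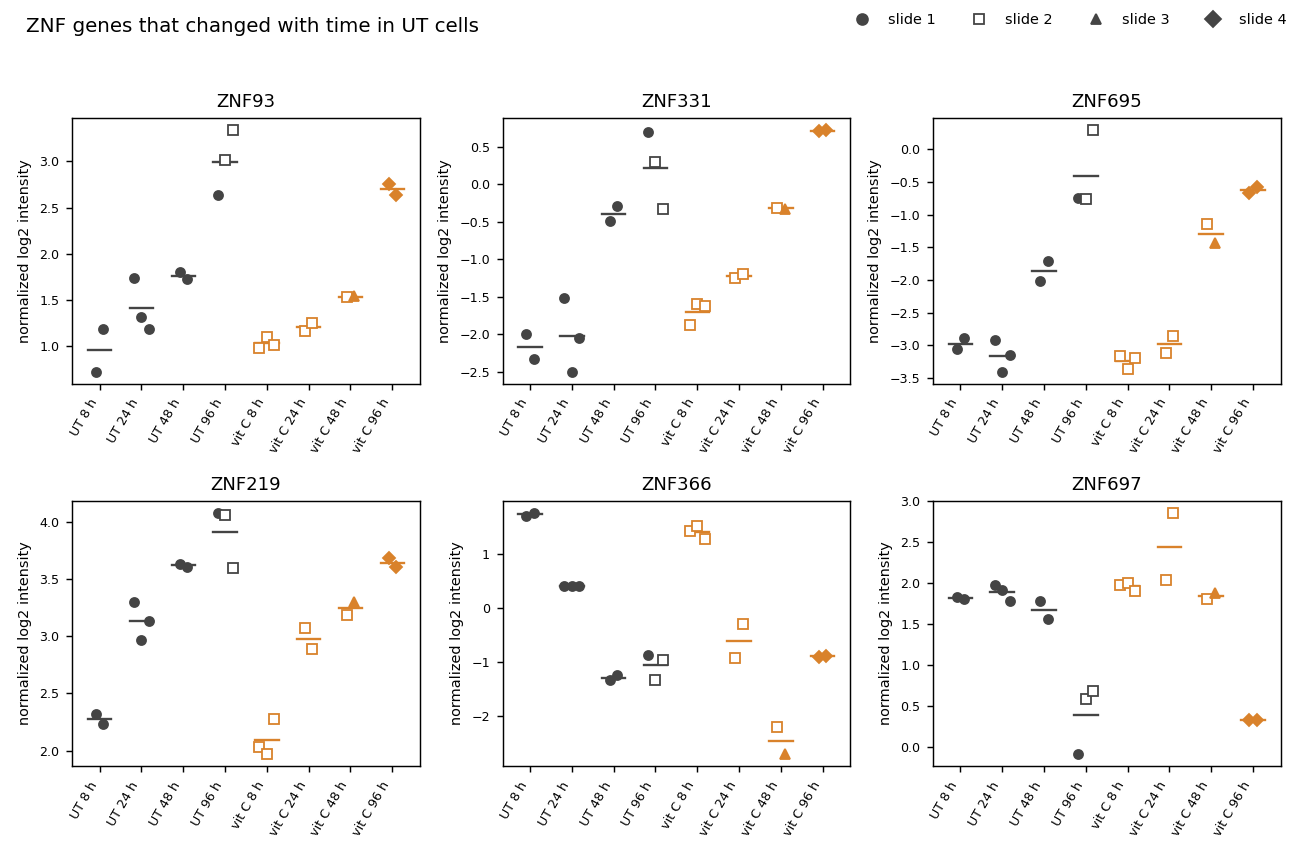
Values per array of the named members that changed with time in UT cells, as log2 signal minus the array's 75th percentile, by group; points are arrays, black for UT and orange for vit C, marker shapes are slides and lines are group means. ZNF93 lies between 2.64 and 3.34 on the 3 UT arrays of 96 h against 0.72 and 1.19 at 8 h, and ZNF366 falls from 1.70 and 1.76 to between -1.34 and -0.87.

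Vit C-treated cells made a separate time course that shares no array with that of UT cells. Of the 37 members that rose in UT cells, 36 also stood higher at 96 h than at 8 h under vit C, and 35 (94.6%) were higher without overlap between the arrays. Over all detected genes that rose in UT cells this share was 93.4%, and over all detected genes 33.6%. All 8 members that fell were lower without overlap, against 89.9% of all detected genes that fell and 41.1% of all detected genes. The difference between vit C 96 h and vit C 8 h was 2.61 for ZNF695, 2.41 for ZNF331, 1.67 for ZNF93, 1.55 for ZNF219, 1.45 for ZNF521, -2.31 for ZNF366 and -1.63 for ZNF697. These are differences of group means on the log2 scale with no test. ZNF575 stands apart from the other members, with -3.07 in vit C-treated cells and 0.09 in UT cells. Its UT arrays of 96 h ran from -2.00 to 4.09 and those of 8 h were 0.25 and 2.34, while with vit C it read 3.71 to 4.33 at 8 h and 0.60 and 1.17 at 96 h. In this course the 8 h arrays were on slide 2 and the 96 h arrays on slide 4.

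Slide 1 held both UT 8 h arrays and UT 96 h replicate 1, so values of the change with time can be given within it. These arrays also took part in choosing the genes that changed, so the values describe their size and are no separate test. The 37 members that rose had a median difference of 1.05 within slide 1, against 1.49 for all 1571 genes that rose. Of the 37, 20 were past 1 on the log2 scale, a smaller share than the 1267 of all 1571. The 8 that fell had a median of -0.97, against -1.23 for all 1294 genes that fell. Of the 8, 3 had changed by more than 1, against 891 of all 1294. ZNF331 differed by 2.86 within slide 1, ZNF695 by 2.23, ZNF93 by 1.68, ZNF219 by 1.80, ZNF521 by 1.89, ZNF366 by -2.61 and ZNF697 by -1.91. With slide as a fixed term 17 members rose, 16 of them among the 37, and 5 fell. Over all genes 2189 of 14791 tested were then called, against 2865 of 14837 without that term.

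**Figure D2:**
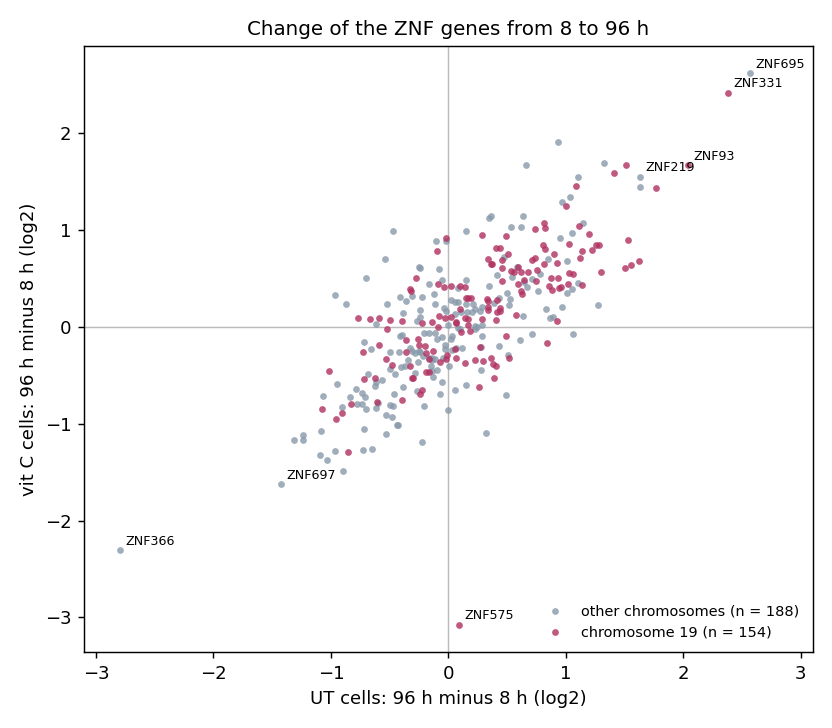
Each of the 342 members by its change from 8 to 96 h in UT cells (x axis) and in vit C-treated cells (y axis), both as differences of group means on the log2 scale; members of chromosome 19 are coloured. Of the 37 members that rose in UT cells 36 lie above 0 on the y axis, and ZNF366 lies at -2.79 and -2.31. ZNF575 lies lowest, at -3.07 on the y axis and 0.09 on the x axis.

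Chromosome 19 holds 154 of the 342 members, and chromosomes 16, 7 and 1 follow with 26, 25 and 19. The members of chromosome 19 had a median change of 0.34 from 8 to 96 h in UT cells, 104 of 154 were higher, and 26 rose and 2 fell of 131 tested. The 188 members of other chromosomes had a median of -0.07, 82 were higher, and 11 rose and 6 fell of 160 tested. The 631 detected genes of chromosome 19 that are not members had a median of -0.24, with 42 risen and 65 fallen of 552 tested, where 10.6% of all genes tested were called higher and 8.72% lower. On the 3 UT arrays of 96 h these genes stood at -0.10, 0.11 and -0.60. On single arrays, as the median of the differences from the UT 8 h mean, the chromosome 19 members stood at 0.11, 0.24 and 0.56 in UT cells at 96 h and at 0.21 and 0.30 in vit C-treated cells at 96 h. All other arrays from 24 h on lay between -0.09 and 0.17. In vit C-treated cells the 96 h against 8 h medians were 0.27 for chromosome 19 and -0.07 for the others.

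The size of this shift depended on 1 array and went along with the base composition of the probes. Without UT 96 h replicate 3 the median of the chromosome 19 members was 0.19, that of the others -0.03 and that of the genes of chromosome 19 that are not members 0.01, and 26 members rose, 25 of them among the 37. Within slide 1 these 3 medians were 0.11, -0.06 and -0.10. Genes were split by GC content of the probe into up to 40%, over 40% and up to 45%, and over 45%. In this order the medians of the chromosome 19 members were 0.44 (77 genes), 0.29 (58) and -0.31 (19). Those of the other members were -0.05, -0.05 and -0.34, and those of all other detected genes 0.01, -0.04 and -0.11. On UT 96 h replicate 3 these medians spread widest, from 0.87 to -0.65 for chromosome 19 and from 0.30 to -0.50 for the non-members. The part of base composition, of the slides and of that array in the shift was not tested.

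**Figure D3:**
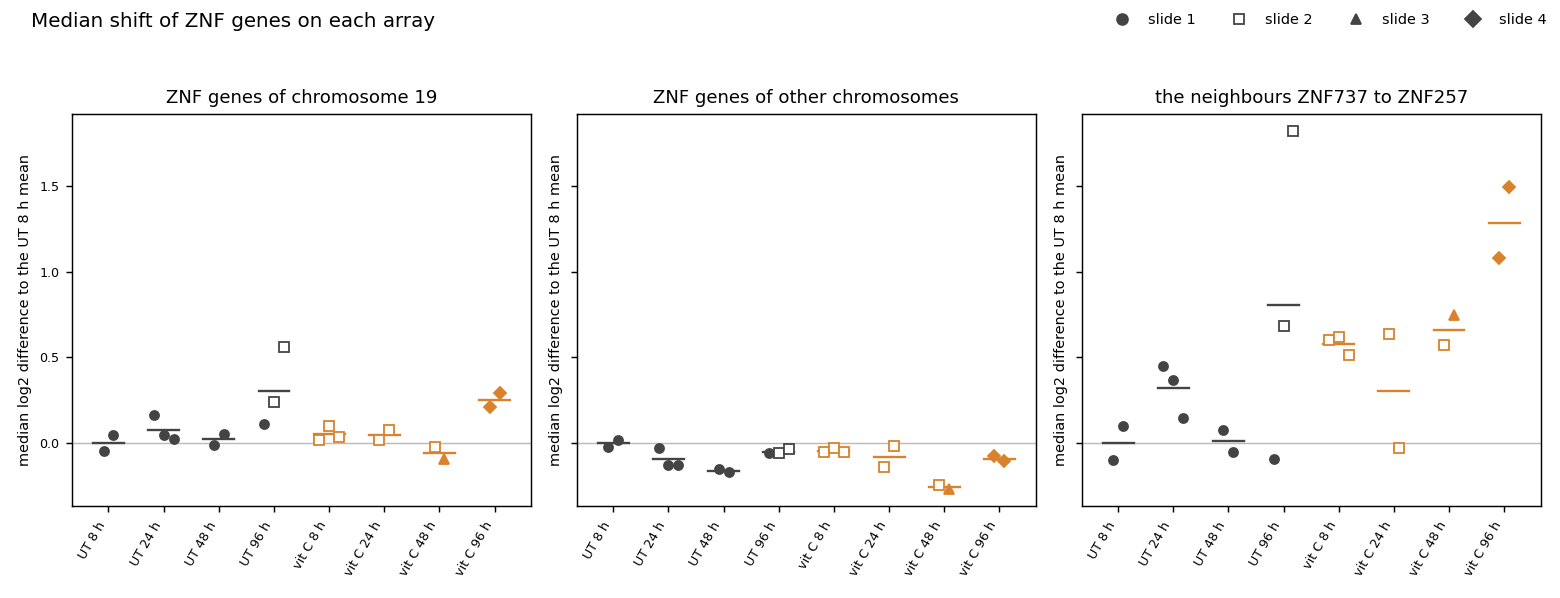
Median difference from the UT 8 h mean (log2) on each array, by group, for the members of chromosome 19 (left), the members of other chromosomes (middle) and the 13 members of the cluster from ZNF737 to ZNF257 (right); points are arrays, black for UT and orange for vit C, marker shapes are slides and lines are group means. The chromosome 19 members stand at 0.11, 0.24 and 0.56 on the UT arrays of 96 h and at 0.21 and 0.30 on the vit C arrays of 96 h.

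Of 339 members that could be placed in the gene order, 224 had another member within 2 genes, and 77 lay in 7 runs of at least 8. The cluster from ZNF737 to ZNF257 (13 members) had the highest median change in UT cells, 0.81, with all 13 higher and 4 risen of 11 tested, namely ZNF737, ZNF626, ZNF493 and ZNF257. The calls of ZNF493 and ZNF257 rest on dimmer probes, while their brightest probes differed by 0.59 (limma, adjusted p = 0.383) and 0.75 (limma, adjusted p = 0.0711), and that of ZNF493 was lower within slide 1 by a difference of -0.35. ZNF626 read -0.84 and -0.73 at 8 h and 0.38, 1.05 and 1.53 at 96 h, and rose by 1.77 ± 0.26 (limma, adjusted p = 0.000186). On the arrays, however, the median of the cluster relative to UT 8 h was -0.09, 0.68 and 1.82 at 96 h in UT cells, so that 1 array of 3 was not above 8 h. In vit C-treated cells it was already 0.51 to 0.62 at 8 h, 0.64 and -0.03 at 24 h, 0.57 and 0.75 at 48 h and 1.08 and 1.49 at 96 h. The vit C against UT medians of the cluster were 0.55, 0.09, 0.47 and 0.46 at the 4 times, and slide and vit C cannot be told apart here.

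Called members of the other runs are given out of those tested, and 10.6% of all genes tested were called higher. The run from ZNF419 to ZNF606 near the end of chromosome 19 (16 members) had a median of 0.54 with 13 higher and 5 risen of 13 tested, ZNF649 to ZNF480 (10) had 0.43 with 2 risen of 8, and ZNF440 to ZNF44 (9) had 0.36 with 3 risen of 6. ZNF565 to ZNF345 (8) had 0.18 with ZNF565 fallen of 8 tested, and ZNF283 to ZNF227 (12) had 0.02 with 6 of 12 higher and 2 risen of 9 tested, ZNF230 and, on its dimmer probe, ZNF223. The run on chromosome 7 from ZNF786 to ZNF467 (9) went the other way, at -0.50 with 2 of 9 higher and none of 8 called.

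Of 35 ZNF genes listed for a known role, 34 were members. The other, ZNF445, a regulator of imprinting, was well above background on at most 2 arrays. Among repressors of transposons and of lipid genes, ZNF93 rose as given above, while ZNF91, which represses SVA elements, differed by -0.24 at 96 h against 8 h and ZNF202 by -0.72, neither called. Among 6 KRAB genes used as models of the class, ZNF331 rose, and the others differed by 0.21 (ZNF10), 0.06 (ZNF274), 0.45 (ZNF350), 0.23 (ZNF268) and -0.53 (ZNF263). Among 9 factors of promoters and chromatin architecture, ZNF335, a part of a histone methyltransferase complex, fell by 1.08 ± 0.27 (limma, adjusted p = 0.00915), from 0.99 and 0.97 to 0.03, 0.39 and -0.73. That call was lost without UT 96 h replicate 3 or either array of 8 h. The other 8, ZNF143, ZNF76, ZNF148, ZNF281, ZNF384, ZNF217, ZNF410 and ZNF24, lay between -0.97 and 0.24 and were not called.

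The least variable member was ZNF410, an activator of CHD4, whose 8 group means spanned 0.15 and whose arrays lay between 2.06 and 2.64. ZNF207, which loads BUB3 onto the spindle, spanned 0.22, and ZNF500, ZNF506 and ZNF212 followed at up to 0.31. Among the 9 members that act on RNA, ribosomes or the spindle, none was called at 96 h against 8 h. ZNF598, the ligase that marks collided ribosomes, differed by -0.03, ZNF622 and ZNF593 of the large ribosomal subunit by -0.07 and -0.71, and ZNF706, ZNF346, ZNF326 and ZNF638 by -0.05, 0.00, -0.10 and -0.87. The partners of ZMYND8, ZNF592, ZNF687 and ZNF532, differed by 0.15, -0.39 and -0.40, and ZNF451, a SUMO ligase, and ZNF462 by 0.15 and -0.33. The probes with the brightest signals were those of ZNF579, ZNF706, ZNF525, ZNF24 and ZNF598. Brightness depends on the probe as well as on the RNA, so levels of different genes are not compared. ZNF579 read 5.45 to 7.06 on 18 arrays and 2.58 on UT 96 h replicate 3.

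The proteins that carry out silencing for KRAB genes were taken as a list of 29, of which 27 were detected. At 96 h against 8 h in UT cells 5 rose and 1 fell of 21 tested, where 10.6% of all genes tested were called higher and 8.72% lower, and the median over the 27 was -0.05. UHRF1, which guides maintenance methylation of DNA, rose by 2.20 ± 0.23, the H3 methyltransferases SUV39H1 and SUV39H2 by 1.66 ± 0.41 and 1.62 ± 0.27, and the heterochromatin proteins CBX5 and CBX1 by 1.28 ± 0.18 and 1.03 ± 0.22. DNMT3A, a de novo DNA methyltransferase, fell by 1.72 ± 0.17. TRIM28 itself differed by -0.25 ± 0.38 and was not called, and its mean went from 2.91 to 2.66. Of the related zinc finger families, 3 rose and 2 fell of 20 tested ZBTB genes, 1 rose and 2 fell of 12 KLF genes, 1 rose of 8 ZFP genes and 1 fell of 13 ZNF genes with a letter in their name. None was called of 7 ZSCAN genes and the 1 ZKSCAN gene that could be tested.

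Between vit C-treated and UT cells at the same time, up to 7 members were called, at shares near or below those of all genes tested. At 8 h 0 of 247 tested members were called, against 0.512% of all genes tested. No member reached q of at most 0.05 at any size of change either, against 0.6% of all genes. The fold was passed by 9 members at an unadjusted p of at most 0.05, all of them higher (4.11% of all genes did). The methods' t-test called 1 member, and a fit per time point and array weights called more, as given in the closing section. The median of the members was -0.03 against -0.07 over all detected genes, and 81.6% of members lay within 0.5 of 0. At 24 h 1 member rose and 4 fell of 254 tested (1.97% against 1.87%), at 48 h 3 rose and 4 fell of 254 (2.76% against 4.02%), and at 96 h 3 rose and 1 fell of 267 (1.5% against 4.71%). With no minimum fold 7, 8 and 14 members passed q at 24, 48 and 96 h, against 2.57%, 5.35% and 9.82% of all genes, and at 48 h 14 members passed the fold at an unadjusted p of 0.05, against 7.52%. Each member called at 24 or 48 h lost its call with slide as a fixed term, and at 96 h that term cannot be separated from vit C. Over all genes that term left 10 of 13791 called at 24 h and 55 of 13773 at 48 h, against 259 and 561 without it. All 16 calls at the single times were lost by the methods' t-test and with a fit per time point. The medians at these times were 0.00, -0.11 and -0.06 against -0.01, -0.08 and -0.09 over all detected genes. The median at 96 h was 0.03 when the percentile was taken over detected probes and 0.04 without UT 96 h replicate 3, so its sign depends on the scaling and on 1 array. The median at 8 h was 0.01 without UT 8 h replicate 2, and that at 24 h 0.07 without vit C 24 h replicate 1.

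ZNF395, a hypoxia-responsive factor, was the only member called lower at both 24 and 48 h apart from ZNF366. At 24 h it read 1.93, 1.34 and 1.26 in UT cells and 0.17 and 0.18 in vit C-treated cells, and at 48 h 1.59 and 1.48 against 0.51 and 0.53. The groups did not overlap at either time, and at 96 h they did, with 1.28, 1.15 and 1.62 against 1.37 and 0.79. It was lower by 1.33 ± 0.24 at 24 h (2.52-fold, limma, adjusted p = 0.0151). At 48 h the call rests on another of its 3 probes, which was lower by 1.57 ± 0.25 (limma, adjusted p = 0.00434), and the brightest probe was lower by 1.01. The call at 48 h was kept without any 1 array and that at 24 h was lost without either vit C array.

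ZNF366, whose level fell with time in UT cells, was called lower with vit C at 24 and 48 h. At 24 h it read 0.41 on all 3 UT arrays and -0.93 and -0.29 with vit C, and at 48 h -1.34 and -1.25 against -2.22 and -2.72. Vit C-treated cells lay below UT cells at both times without overlap, by 1.02 ± 0.22 (limma, adjusted p = 0.033) and 1.17 ± 0.24 (limma, adjusted p = 0.0165). At 96 h the groups overlapped, with -0.87, -1.34 and -0.97 against -0.91 and -0.89. The call at 24 h was lost without vit C replicate 1 or any of the 3 UT arrays, and that at 48 h without vit C replicate 2 or either UT array.

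The other 3 calls at 24 h also depended on single arrays. ZNF274, which binds the ends of other zinc finger genes and recruits SETDB1, read -0.37, -0.13 and -0.64 in UT cells and -1.12 and -1.68 with vit C. It was lower by 1.02 ± 0.23 (limma, adjusted p = 0.041), and lost the call without vit C replicate 2 or any UT array. At 48 h its arrays with vit C lay above those of UT cells (-0.52 and -0.90 against -1.09 and -1.08), a difference of 0.38 that was not called. ZNF766 was lower by 1.18 ± 0.26 (limma, adjusted p = 0.0392) and lost the call without UT replicate 2 or 3 or either vit C array. ZNF409, a homeobox and zinc finger gene, was higher by 1.06 ± 0.20 (limma, adjusted p = 0.0179), at -0.69 and -0.34 against -1.34, -1.70 and -1.68. It lost the call without UT replicate 2 or 3 or vit C replicate 2.

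At 48 h ZNF239 was higher by 1.14 ± 0.19 (limma, adjusted p = 0.00504), at -0.19 and -0.10 against -1.32 and -1.24, and ZNF521 by 1.12 ± 0.26 (limma, adjusted p = 0.0316), at 1.77 and 1.69 against 0.68 and 0.53. ZNF239 lay above UT cells without overlap at all 4 times, while ZNF521 overlapped at 8, 24 and 96 h. ZNF239 lost its call without vit C replicate 2, and ZNF521 without any 1 of the 4 arrays. ZNF778 was lower by 1.06 ± 0.23 (limma, adjusted p = 0.0236), at -4.16 and -3.71 against -2.87 and -2.89, and lost the call without vit C replicate 1 or either UT array. ZNF837 and ZNF516 were called on their dimmer probes, lower by 1.14 ± 0.23 and higher by 2.81 ± 0.53, and both lost the call without any 1 array. The brighter probe of ZNF516 differed by 0.36.

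At 96 h ZNF553 and ZNF800 kept their calls without any 1 array. The methods' t-test and a fit per time point kept neither, and each called 0 of 14172 genes tested at that time. ZNF553 read 0.28, 0.86 and 0.62 in UT cells and -0.72 and -0.66 with vit C, lower by 1.28 ± 0.20 (limma, adjusted p = 0.00185), and its other probe by 1.29 ± 0.20. ZNF800 read -1.45, -1.71 and -1.67 in UT cells and -0.41 and -0.16 with vit C, higher by 1.33 ± 0.18 (limma, adjusted p = 0.000781). Its groups overlapped at 8 and 24 h, where they differed by 0.12 and 0.02. At 48 h it lay lower with vit C without overlap, at -1.43 and -1.62 against -1.07 and -1.14, a difference of -0.42 that was not called. ZNF638, an RNA-binding protein that silences unintegrated retroviral DNA, read -0.63, -1.43 and -0.28 in UT cells and 0.23 and 0.44 with vit C. It was higher by 1.12 ± 0.32 (limma, adjusted p = 0.0377), a call lost without UT replicate 1 or 2 or either vit C array. ZNF654 was called on the dimmest of its 3 probes, higher by 1.35 ± 0.26 (limma, adjusted p = 0.00769), while its other probes differed by 0.52 and 0.36, and the call was lost without either vit C array.

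One array decided the count at 96 h. Without UT 96 h replicate 3, 28 members were called, 19 higher and 9 lower, and all 4 of the calls above remained. Of the 19, 7 lay on chromosome 19. Over all genes tested the share called was then 9.56%, so this array moved the count of all genes too.

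**Figure D4:**
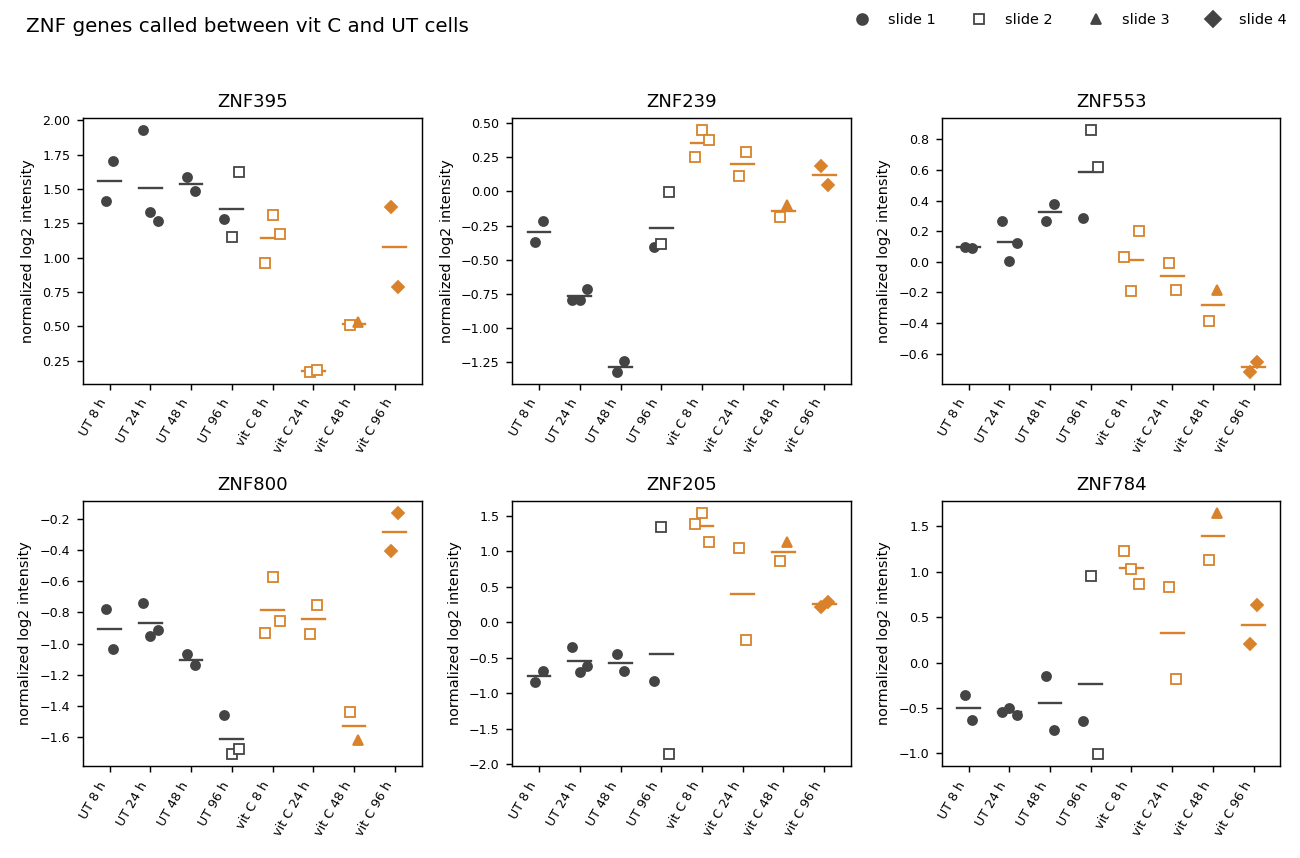
Values per array of named members called for vit C against UT, as log2 signal minus the array's 75th percentile, by group; points are arrays, black for UT and orange for vit C, marker shapes are slides and lines are group means. ZNF395 stands at 0.17 to 0.53 with vit C at 24 and 48 h against 1.26 to 1.93 in UT cells, and ZNF800 at -0.41 and -0.16 against -1.71 to -1.45 at 96 h.

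Averaged over the 4 times, 4 members were called of 265 tested (1.51% against 2.48% of all genes), all higher with vit C. ZNF205 was higher by 1.33 ± 0.32 (limma, adjusted p = 0.0157), ZNF784 by 1.22 ± 0.23 (limma, adjusted p = 0.00375), and ZNF516 and ZNF493 by 1.71 ± 0.25 and 1.17 ± 0.25 on single dimmer probes. On slide 1, ZNF205 lay between -0.84 and -0.34 on all UT arrays. On slide 2 it read 1.13 to 1.55 with vit C at 8 h, 1.05 and -0.24 at 24 h and 0.87 on the 48 h array, but also 1.35 on UT 96 h replicate 2 and -1.86 on UT 96 h replicate 3. ZNF784 behaved alike, with -0.74 to -0.15 on slide 1 and 0.95 and -1.01 on the UT arrays of slide 2. For these genes the slide, single arrays and vit C cannot be told apart. The brightest probes gave 0.01 for ZNF516 and 0.66 for ZNF493. The 5 members with the highest mean differences were ZNF205, ZNF784 and 3 that were not called. Of these ZNF665 (1.12) and ZNF575 (1.02) were not tested because their probes moved in opposite directions, and ZNF714 (0.90) was under the fold. ZNF575 differed by 2.66 at 8 h and by -0.51 at 96 h.

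The 5 members with the lowest mean differences were ZNF395, ZNF778, ZNF408, ZNF366 and ZNF425. ZNF395 was lower by 0.76 ± 0.12 (limma, adjusted p = 0.00132), ZNF778 by 0.64 ± 0.11 (limma, adjusted p = 0.00176) and ZNF366 by 0.59 ± 0.11 (limma, adjusted p = 0.00362). ZNF425 was lower by 0.59 ± 0.09 (limma, adjusted p = 0.00117) and ZNF408 by 0.60 ± 0.23 (limma, adjusted p = 0.0967). None reached the fold. The difference of ZNF366 was -0.33, -1.02, -1.17 and 0.16 at the 4 times and that of ZNF395 -0.41, -1.33, -1.01 and -0.27, so both means rest mainly on 24 and 48 h. With no minimum fold 34 members passed q, 19 higher and 15 lower, and 18% of all genes tested did. In all, 91.5% of members had a mean effect of less than 0.5 on the log2 scale in either direction.

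The effect of vit C differed between the 4 times for 2 of 342 members (limma's F test, q of at most 0.05), or 0.585% against 1.43% of all genes. They were ZNF800 and the dimmest probe of ZNF654. In both the vit C effect was highest at 96 h, which was also the time whose vit C arrays had a slide of their own.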

How the data were processed

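PMA-differentiated THP-1 cells, UT or vit C-treated, were measured on 19 Agilent one-colour arrays of a custom whole-genome design (027114), and the group of each array was read from its label. The p-values measure the spread between these arrays, and their number limits the precision. For the intensity values, the authors scanned the arrays and extracted spot signals with Feature Extraction 10.5.1.1, per the file headers with spatial and multiplicative detrending and no normalization between arrays. The series matrix holds log2 values that the authors deposited after a shift to the 75th percentile per array, and it served as an alternative. Flags for background, saturation and outliers are other columns the authors deposited.

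Here, log2 of the processed signal was averaged over the spots of a probe and the 75th percentile over all probes was subtracted. All probes entered 1 linear model with a mean for each of the 8 groups, in R 4.3.3 with limma 3.58.1 (lmFit, eBayes, 2-sided, Benjamini-Hochberg), with data.table (version 1.17.8). As in the methods, genes whose probes moved in opposite directions in a comparison were removed before adjustment, and a call needed a log2 change of 1 and q of 0.05. A gene is called by any probe detected on all arrays, and its value is that of the brightest such probe. Changes are differences of log2 values, and SE is that of the fit.

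The members, lists, named genes and tests were chosen with earlier results of these data known. The genes named are all called members where a comparison had 10 or fewer, otherwise the 3 largest rises and falls without overlap, the 5 with the brightest probes, the 5 with the largest mean effect each way, the 5 with the largest and smallest ranges, and lists of known roles. Other members, such as ZNF219, ZNF521 and ZNF626 at 96 h, the promoter words, the clusters and the split by chromosome were chosen after values were seen. Gene order, chromosomes and promoters come from RefSeq (GRCh38.p14). Of the members, 311 matched by symbol, 25 by accession and 6 by an older symbol. Tested on simulated data at 8 h, the fit recovered 86.0% of 57 probes changed by 1.5 and 90.2% of 61 changed by 2.5 on the log2 scale, with 5 false calls. Also tried were a separate fit for every time point, the methods' t-test, an intensity trend, quantile normalization, the percentile over detected probes, normexp with an offset of 50, dim probes left out, opposing probes kept, gene means of probes, slide as a fixed or random block, a replicate block, array weights, the series matrix, other thresholds and member rules, and each array left out in turn. The slides were kept out of the model because no slide holds both treatments of 1 time, and where leaving out an array left a single one in its group, that array was taken to vary as arrays of the remaining groups do.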

Additional observations from a re-analysis of the deposited data

Results flagged for a closer look

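For 2 members the effect of vit C differed between the time points by limma's F test of the interaction, with Benjamini-Hochberg adjustment over all probes. The vit C against UT difference of ZNF800 was 0.12 ± 0.18 (SE), 0.02 ± 0.18, -0.42 ± 0.20 and 1.33 ± 0.18 on the log2 scale at 8, 24, 48 and 96 h (adjusted p = 0.0210, limma). For the dimmest probe of ZNF654 it was -0.54 ± 0.26, -0.48 ± 0.26, -0.51 ± 0.28 and 1.35 ± 0.26 (adjusted p = 0.0369, limma). The vit C arrays of 96 h lay on a slide of their own that was scanned on another day, and at 96 h slide and vit C cannot be told apart.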

How the results depend on the processing

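No called change reversed its sign. The medians over the members, which had no test, lay near 0, and those of vit C at 8, 24 and 96 h and of UT cells at 24 and 48 h changed sign under some settings. Of the values of single genes under the alternatives, 571 kept their call and 165 did not reach the threshold. The methods' t-test and a fit per time point left none of 16 calls for vit C, normexp removed 20 of 42, slide as a fixed term 15 of 34 and the replicate block 9. Counts of called members that moved over 1.5 times follow, with the cause not tested. For vit C at 8 h (0 called) they were 1 by the t-test, 5 with a fit per time point, 1 with normexp, 10 with array weights, 9 at an unadjusted p and 1 with genes detected in at least 1 group. Over all genes (70 called) they were 7 by the t-test, 262 per time point, 163 with normexp and 491 with array weights. For 24 h (5) they were 0, 0 and 1 for the first 3 of these, 0 with slide fixed, 3 with slide random, 3 with the replicate block, 2 with array weights and 10 with genes detected in at least 1 group. For 48 h (7) they were 0 by the t-test, 0 per time point, 3 with normexp, 1 with slide fixed, 15 with array weights and 14 at an unadjusted p, and the median with slide fixed was -0.17. Over all genes (561 called) they were 2 by the t-test, 0 per time point, 403 with normexp, 55 with slide fixed and 991 with array weights. For 96 h (4) they were 0, 0 and 2 for t-test, time point and normexp, 7 with opposing probes kept, 18 with array weights, 14 with no minimum fold and 7 with genes detected in at least 1 group, and the median was 0.0316 with the percentile over detected probes and -0.12 with normexp. Over all genes (668 called) they were 0 by the t-test, 0 per time point, 464 with normexp, 765 with opposing probes kept and 1105 with array weights. For the mean effect (4) they were 2 with normexp, 7 with array weights, 34 with no minimum fold and 12 with genes detected in at least 1 group. Over all genes (349 called) they were 218 with normexp and 440 with array weights. For UT cells they were 1 with the replicate block, 5 with no minimum fold and 5 with genes detected in at least 1 group at 24 h (3), 5 with normexp, 28 and 15 for the same last 2 at 48 h (9), with a median of 0.0161 under normexp, and 22 with normexp, 22 with slide fixed and 85 with no minimum fold at 96 h (45). Over all genes they were 369 with the replicate block at 24 h (443 called) and 1145 with normexp at 48 h (1571 called). At 96 h (2865 called) they were 2165 with normexp and 2189 with slide fixed. For the F test (2) they were 1 with slide random, 0 with the replicate block, 16 with array weights and 1 with the mean of the kept probes. Over all genes (247 called) they were 191, 77, 1505 and 269 in the same order.

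With each array left out in turn, the counts ranged from 0 to 0 for vit C at 8 h, 1 to 3 at 24 h, 2 to 5 at 48 h, 2 to 28 at 96 h, 3 to 7 for the mean, 0 to 3, 6 to 8 and 34 to 62 for UT cells at 24, 48 and 96 h, and 0 to 6 for the F test. The medians ranged from -0.07 to 0.01, -0.0403 to 0.0720, -0.11 to -0.10, -0.0666 to 0.0372 and -0.06 to -0.04 for vit C, and from -0.03 to 0.01, -0.10 to -0.05 and 0.07 to 0.10 for UT cells. Replicate numbers did not pair the arrays: the correlation of deviations from the group means had a median of -0.06 over 59 pairs with the same number and 0.06 over 98 pairs with different numbers. Members near background and groups of 2 arrays limit what these arrays can show.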
